A study of Mus musculus with 8 samples.

Results

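The insulin-like growth factor (IGF) system was followed through 10 genes in whole mouse kidneys at embryonic day 14.5. They comprise the ligands Igf1 and Igf2, the receptor Igf1r, the binding proteins Igfbp2, Igfbp3, Igfbp4, Igfbp5 and Igfbp7, and the metalloproteases Pappa and Pappa2. They are named members of the IGF system, and every non-control probe whose RefSeq accession belongs to 1 of them was taken from the arrays. That gave 14 probes out of 56605 on the array, for 10 genes out of 22911. All 10 genes were among the 16013 tested.

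The controls were wild-type kidneys and the mutants were kidneys in which a Hoxb7Cre transgene had removed Mdm4, whose product restrains p53. The Hoxb7 promoter drives Cre in the Wolffian duct, the ureteric bud and the collecting ducts that grow from it, so that the stroma, the nephron progenitors and the nephrons made from them are not the cells targeted. Total RNA (100 ng per labelling) from 4 wild-type and 4 mutant kidney samples was hybridised as 4 pairs on 8 2-colour arrays, with each pair on 2 arrays and the dyes exchanged. The labels used here do not give the strain, the Mdm4 allele, whether controls carried the transgene, or how many embryos went into an RNA. What the p-values measure is thus the scatter of 4 pairs, some of which may be technical.

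IGF1 and IGF2 are secreted growth factors that act through the tyrosine kinase receptor encoded by Igf1r, and IGF2 is the main fetal ligand. In tissue fluid most IGF is held by binding proteins, which prolong its life and keep it from the receptor. The pappalysins PAPP-A and PAPP-A2 cut binding proteins and so free the ligand: PAPP-A cuts IGFBP4 and also IGFBP2 and IGFBP5, and PAPP-A2 cuts IGFBP3 and IGFBP5. In the kidney, Pappa2 transcripts are known from the thick ascending limb of the loop of Henle, near the macula densa. Igfbp2 and Igfbp5 lie beside each other in the genome.

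To show the start regions of the genes that the results turn on, the 250 bases before an annotated start are given for Pappa2, the member with the largest ratio, and for the neighbours Igfbp2 and Igfbp5, whose ratios had opposite signs in pair 4. The sequences are RefSeq's (GRCm38.p6) and run 5′ to 3′ on the strand of the gene, and 0 annotated genes lie between Igfbp2 and Igfbp5. The stretch of Pappa2 is chr1:158958176-158958425 on the minus strand, that of Igfbp2 is chr1:72824230-72824479 on the plus strand, and that of Igfbp5 is chr1:72874866-72875115 on the minus strand. Capitals mark, on either strand, matches to the CCAAT box, to the GC box (letters GGGCGG) and to the TATA box (letters TATAAA).
Pappa2: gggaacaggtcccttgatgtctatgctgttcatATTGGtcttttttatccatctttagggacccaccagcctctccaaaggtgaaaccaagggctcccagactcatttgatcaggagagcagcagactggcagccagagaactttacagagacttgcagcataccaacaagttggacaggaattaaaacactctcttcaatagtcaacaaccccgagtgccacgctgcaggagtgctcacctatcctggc
Igfbp2: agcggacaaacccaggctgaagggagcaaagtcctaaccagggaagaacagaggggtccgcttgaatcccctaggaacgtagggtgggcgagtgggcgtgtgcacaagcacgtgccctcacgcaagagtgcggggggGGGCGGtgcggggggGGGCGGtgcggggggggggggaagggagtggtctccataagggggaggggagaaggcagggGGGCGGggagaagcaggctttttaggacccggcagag
Igfbp5: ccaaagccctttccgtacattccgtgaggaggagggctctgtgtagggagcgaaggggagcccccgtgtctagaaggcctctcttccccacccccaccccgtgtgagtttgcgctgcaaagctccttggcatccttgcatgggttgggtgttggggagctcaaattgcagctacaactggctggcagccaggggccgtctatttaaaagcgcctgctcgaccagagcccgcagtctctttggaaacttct
The stretch of Pappa2 held 1 CCAAT match, at -217 counted from the start and read on the opposite strand, and 49.2% of its bases were G or C, with 2 CpG. This start lies 2276 bases inside the annotated span of the gene. The Igfbp2 stretch held 3 GC boxes, at -113, -98 and -37 from the start, and its G and C content was 67.2% with 14 CpG. Another annotated Igfbp2 start, 907 bases inside the gene and not printed, had 0 GC boxes in its stretch and 56.4% G and C. In the Igfbp5 stretch none of these motifs was found, and its G and C content was 58.8% with 10 CpG. Over the same stretch of 32851 RefSeq starts, a CCAAT box was found in 33.8%, a GC box in 32.7% and a TATA box in 12.4%, so that each is a common run of letters. RefSeq stretches were found for 9 of the 10 members, Pappa being the other gene. A p53 half-site, searched on both strands, was found upstream of 7.13% of all starts and in 1 of the 13 stretches of the members, at an alternative start of Igf2. These matches describe letters and were not tested against the array values.

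In each channel of an array, 60.7% to 70.2% of spots were well above background and 0 were saturated. With 4 pairs the precision is limited by their number: a gene had a standard error of 0.07 on the log2 scale at the median. The ratios of the 2 dye-swapped arrays of a pair correlated at 0.448, 0.104, 0.414 and 0.550 over the genes in pairs 1 to 4. Pair 2 had the lowest value, which also depends on how much the 2 RNAs differ and so does not measure repeatability alone. The pairs also differed in sex-linked transcripts: the mean ratio of 4 Y-linked genes was 2.76, 1.31, -1.64 and 2.83 in pairs 1 to 4, and Xist was at -2.71, -0.23, 2.48 and -2.80. In normalised log2 intensity, Y-linked Eif2s3y was at 6.68, 6.44, 10.58 and 6.76 in wild type. Its mutant levels were 10.59, 8.70, 8.56 and 10.86. Xist was at 9.68, 9.80, 6.98 and 10.24 in wild type and at 6.97, 9.57, 9.46 and 7.44 in the mutant. The mutant samples of pairs 2 and 3 thus carried both transcripts, at like levels. Whether these 2 samples share an RNA was not tested, and if so the 4 pairs are not independent. Mdm4 was at -0.03, -0.06, -0.28 and -0.35 (mean -0.18 ± 0.07, SE, n = 4 pairs, limma adjusted p = 0.471), with means of -0.00062 with mutant RNA in Cy5 and -0.36 with it in Cy3. The labels do not say whether its probe lies in the deleted part. Kidney markers were measured in every group: all 6 nephron progenitor, 10 ureteric, 10 stromal and 6 podocyte genes were tested. None of the 10 ureteric markers had a mean ratio above 0 (their mean was -0.78, -0.21, 0.00 and -0.62 in pairs 1 to 4), whereas 9 of 10 stromal markers were above 0 (0.36, 0.34, 0.14 and 0.34). Over all genes tested, 8629 of 16013 had a mean ratio above 0. In whole-kidney RNA, fewer cells of a type and less RNA per cell cannot be told apart.

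Of the 10 members, Pappa2 was the gene that separated mutant from wild-type kidneys on every array. Ratios are given as log2 of mutant over wild type, so that 1 is a doubling, and levels as normalised log2 intensity, which can be compared between samples of 1 gene but not between genes. Across the members, 6 mean ratios were above 0 and 4 below, with a median of 0.11 beside 0.01 for all genes tested. No member passed limma's test at an adjusted p of 0.05 over all genes, nor did any of the 16013 genes (0% called, smallest adjusted p = 0.0750), although 1699 genes had an unadjusted p under 0.05. At that unadjusted level 3 members were higher (Pappa2, Igf1 and Igfbp5), beside 7.01% of all genes, and 1 was lower (Igfbp3), beside 3.6%. This count of 4 was 1 without pair 1 and 1 without pair 4. The same sign in all 4 pairs was found for 1 member that was higher (Pappa2), beside 12.1% of all genes, and for 1 that was lower (Igfbp3), beside 7.84%. In the 3 pairs left without pair 3, 3 members were higher in each (Pappa2, Igfbp5 and Pappa), beside 17.5% of all genes, and 3 were lower in each (Igf1r, Igfbp3 and Igfbp7), beside 17.2%.

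**Figure D1:**
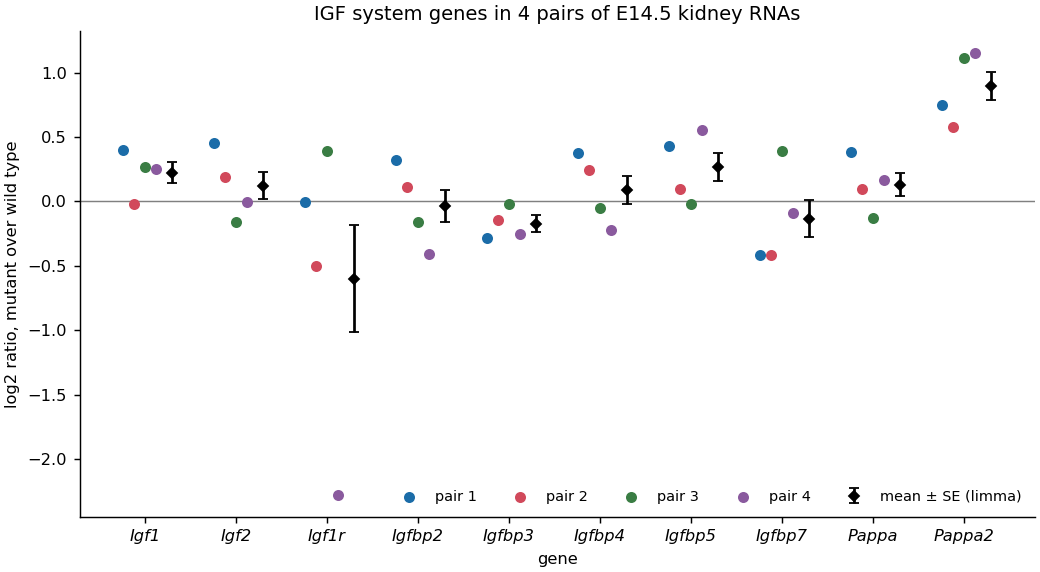
Log2 ratio of mutant over wild type (vertical axis) for the 10 genes in pairs 1 to 4 (coloured points, each the mean of 2 dye-swapped arrays), with the mean and standard error from limma (black diamonds). The Pappa2 points lie between 0.58 and 1.15, the Igfbp3 points between -0.28 and -0.02, and the points of the other 8 genes on both sides of 0.

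The ligands gave ratios near the spread between pairs. Igf1 was at levels of 11.62, 11.57, 11.32 and 11.34 in the wild-type samples of pairs 1 to 4 and at 12.02, 11.55, 11.59 and 11.59 in the mutant samples. The mutant level was the higher in 3 of 4 pairs, pair 1 had the highest mutant level, and the levels of the 2 genotypes overlapped. The ratios were 0.40, -0.02, 0.27 and 0.25, with a mean of 0.22 ± 0.08 (SE, n = 4 pairs), a 1.17-fold difference (limma adjusted p = 0.442). Igf2, the fetal ligand, was at 15.16, 15.16, 15.40 and 15.35 on the level scale in wild type by its brighter probe. The mutant levels of that probe were 15.62, 15.35, 15.25 and 15.34. Pairs 1 and 2 were higher in the mutant, pair 3 was lower and pair 4 was level, so that the genotypes overlapped (mean ratio 0.12 ± 0.10, SE, n = 4 pairs, limma adjusted p = 0.682). The dimmer Igf2 probe gave ratios of 0.21, -0.11, -0.53 and -0.51, with a mean of -0.23, the opposite sign. The probes of Igf2 therefore disagreed on direction, and no direction is given for the gene.

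Igf1r, the receptor for both ligands, had the widest spread of the members. By its brighter probe the wild-type levels were 12.25, 12.27, 11.37 and 11.75, and the mutant levels were 12.25, 11.76, 11.76 and 9.48. The mutant sample of pair 4 was low and the other samples overlapped. The ratios were -0.01, -0.50, 0.39 and -2.28 (mean -0.60 ± 0.41, SE, n = 4 pairs, limma adjusted p = 0.618), and without pair 4 the mean was -0.04. Both arrays of pair 4 gave the low value, -2.42 with the mutant RNA in Cy5 and -2.14 with it in Cy3. The dimmer probe did not share it: its ratios were -0.10, -0.07, 0.04 and -0.26, with a mean of -0.096. With mutant RNA in Cy5 that probe was at -0.42 to -0.87, and with mutant RNA in Cy3 it was at 0.23 to 0.66, so that its sign followed the dye.

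**Figure D2:**
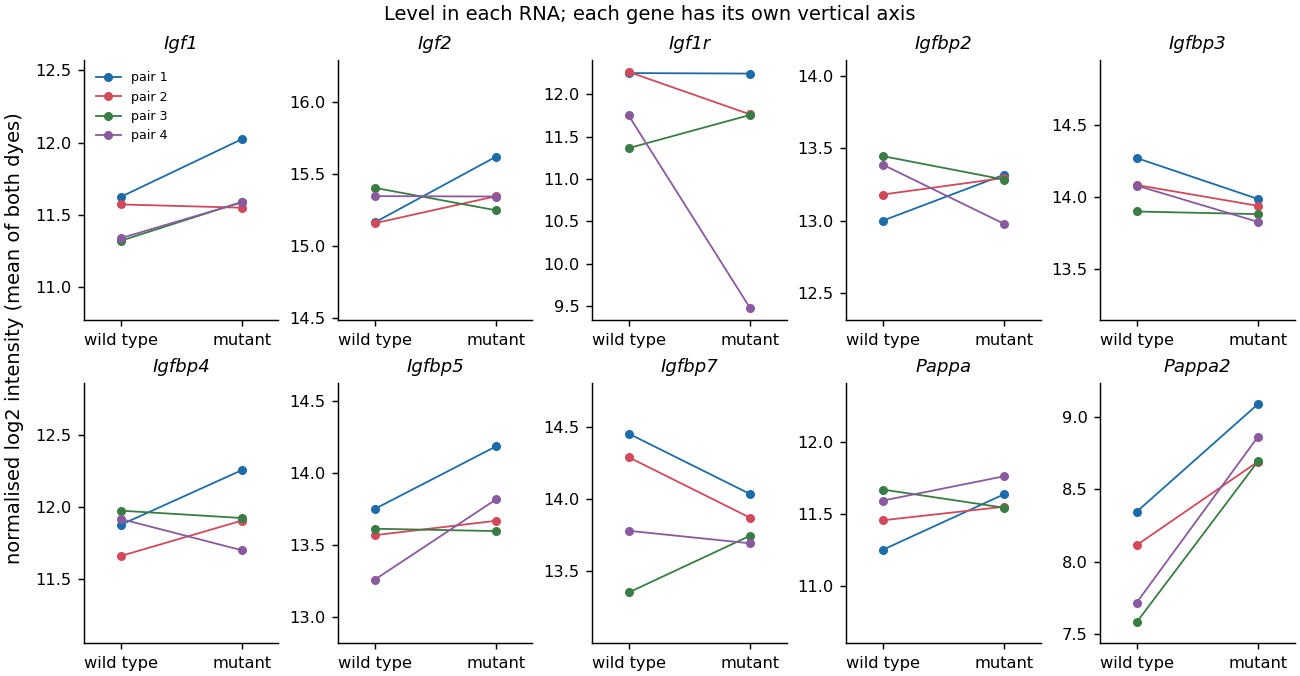
Normalised log2 intensity of each gene in the wild-type and the mutant sample of pairs 1 to 4 (vertical axis, separate for each gene, mean of both dyes; lines join the samples of a pair). The Pappa2 levels do not overlap, with 7.58 to 8.35 in wild type and 8.69 to 9.09 in the mutant, and the low Igf1r point is the mutant sample of pair 4.

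Among the binding proteins that are members, Igfbp5 had the largest positive mean ratio and Igfbp3 the largest negative one. Igfbp5, a matrix-associated binding protein that both pappalysins cut, was at 13.75, 13.57, 13.61 and 13.26 on the level scale in wild type and at 14.18, 13.67, 13.60 and 13.82 in the mutant. It was higher in pairs 1, 2 and 4 and level in pair 3, and the genotypes overlapped. The ratios were 0.43, 0.10, -0.02 and 0.56, with a mean of 0.27 ± 0.11 (SE, n = 4 pairs, 1.20-fold, limma adjusted p = 0.467). With mutant RNA in Cy5 the mean was 0.09 and with it in Cy3 it was 0.45, and it was 0.12 with the Y-linked difference as a covariate. Its neighbour Igfbp2, a binding protein that circulates at high level in the fetus, was at 12.9995, 13.18, 13.45 and 13.39 in wild type and at 13.32, 13.30, 13.28 and 12.98 in the mutant. The ratios of Igfbp2 were positive in pairs 1 and 2 and negative in pairs 3 and 4, at 0.32, 0.11, -0.16 and -0.41 (mean -0.03 ± 0.12, SE, n = 4 pairs, limma adjusted p = 0.929). In pair 4 the neighbours were thus at 0.56 for Igfbp5 and -0.41 for Igfbp2.

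Igfbp3, the main carrier of IGF in blood and a substrate of PAPP-A2, was at levels of 14.27, 14.08, 13.90 and 14.08 in wild type and 13.98, 13.94, 13.88 and 13.83 in the mutant. The mutant was the lower in 4 of 4 pairs, although the genotypes overlapped. The ratios were -0.28, -0.14, -0.02 and -0.25, with a mean of -0.17 ± 0.07 (SE, n = 4 pairs, limma adjusted p = 0.453). The sign differed between the dye orientations: with mutant RNA in Cy5 the 4 arrays gave -0.54, -0.53, -0.37 and -0.58, and with mutant RNA in Cy3 they gave -0.03, 0.24, 0.33 and 0.08. Under median centring of the arrays in place of loess, a setting under which the median over all genes was 0.14 in place of 0.01, Igfbp3 was at -0.01.

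Igfbp4, the classic substrate of PAPP-A, was at 11.88, 11.66, 11.98 and 11.92 on the level scale in wild type by its brighter probe and at 12.26, 11.91, 11.93 and 11.70 in the mutant. The genotypes overlapped, and the ratios of 0.38, 0.25, -0.05 and -0.22 gave a mean of 0.09 ± 0.11 (SE, n = 4 pairs, limma adjusted p = 0.772). Its dimmer probe was at 0.15, -0.10, -0.20 and -0.42 with a mean of -0.14, so that the probes disagreed in sign and shared the order of the pairs. Igfbp7, a matrix protein that binds IGF weakly and is made by vascular and stromal cells, was at 14.45, 14.29, 13.35 and 13.78 in wild type and at 14.03, 13.87, 13.74 and 13.69 in the mutant. The wild-type levels of Igfbp7 spanned a wider range than the mutant levels and enclosed them. The ratios were -0.42, -0.42, 0.39 and -0.09 (mean -0.13 ± 0.14, SE, n = 4 pairs, limma adjusted p = 0.744), and pair 3, the pair with the opposite Y-linked sign, was the positive value.

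Pappa2 was the member with the largest mean ratio, while its relative Pappa was close to 0. For Pappa2 the wild-type levels were 8.35, 8.11, 7.58 and 7.72 (mean 7.94 ± 0.35, SD, n = 4) and the mutant levels were 9.09, 8.69, 8.70 and 8.87 (mean 8.84 ± 0.19, SD, n = 4). Every mutant sample was above every wild-type sample. The mutant levels of pairs 2 and 3 lay close together (8.694 and 8.697), and these samples may not be independent. Of all genes tested, 3.3% had every mutant level above every wild-type level and 1.52% had every mutant level below, and the levels of the other 9 members overlapped. The ratios of Pappa2 were 0.75, 0.58, 1.12 and 1.15, with a mean of 0.90 ± 0.11 (SE, n = 4 pairs, 95% interval 0.63 to 1.17), a 1.86-fold difference. It was above 0 on 8 of 8 arrays, with means of 0.96 with mutant RNA in Cy5 and 0.83 with it in Cy3.

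The difference in Pappa2 was larger than the spread between pairs, and its p-value ranked 12 among the 16013 genes, but the test did not pass after adjustment over all genes (limma adjusted p = 0.202). In a fit of all 8 arrays with a dye coefficient and the pair number as a replicate block, the ratio was again 0.90 and the limma adjusted p was 0.00386. Under median centring the ratio was 0.97 with a limma adjusted p of 0.0142. That setting also moved the median over all genes to 0.14 from 0.01, and 42 genes were called. Over the 13 alternatives run, the ratio of Pappa2 lay between 0.81 and 1.27 and the adjusted p between 0.00386 and 0.566. The low and high end of the ratio came from leaving out pair 4 and from the deposited ratios. With the Y-linked difference as a covariate it was 0.95. The value rests on 1 probe that was well above background in all 8 wild-type and all 8 mutant channels, since a further Pappa2 probe was well above background in 0 channels and was not kept.

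**Figure D3:**
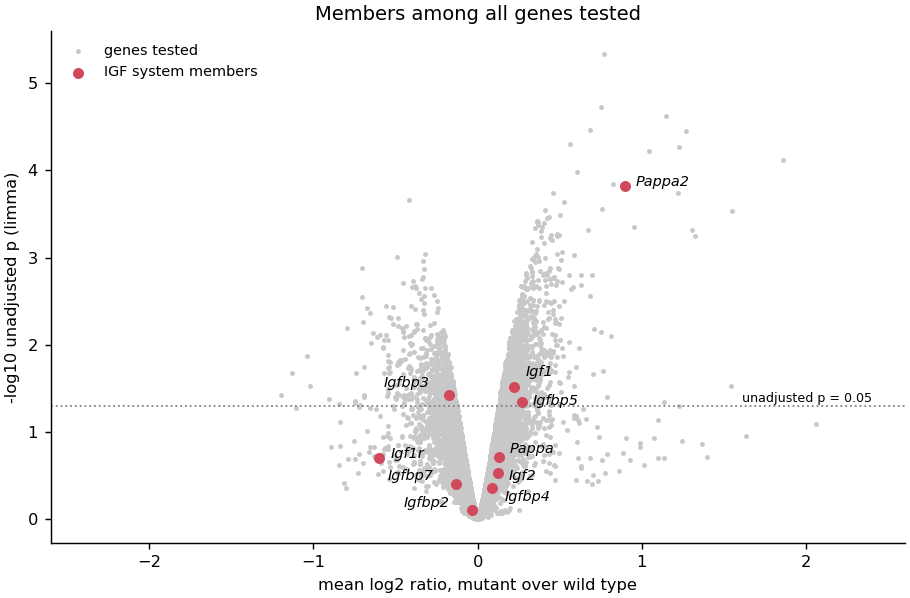
Mean log2 ratio of mutant over wild type (horizontal axis) against -log10 of limma's unadjusted p (vertical axis) for the 16013 genes tested (grey) and the 10 members (red); the dotted line marks an unadjusted p of 0.05. Pappa2 stands at 0.90 with rank 12, Igf1, Igfbp3 and Igfbp5 lie just above the line and the other 6 members below it.

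Pappa, the pappalysin that cuts IGFBP4, was at 11.25, 11.46, 11.67 and 11.59 on the level scale in wild type and at 11.64, 11.55, 11.55 and 11.76 in the mutant. The genotypes overlapped, pair 3 was lower in the mutant and the other pairs were higher. The ratios were 0.39, 0.09, -0.13 and 0.17 (mean 0.13 ± 0.09, SE, n = 4 pairs, limma adjusted p = 0.616), and the mean was 0.01 with the Y-linked difference as a covariate. In each of the 4 pairs the ratio of Pappa2 was larger than that of Pappa.

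**Figure D4:**
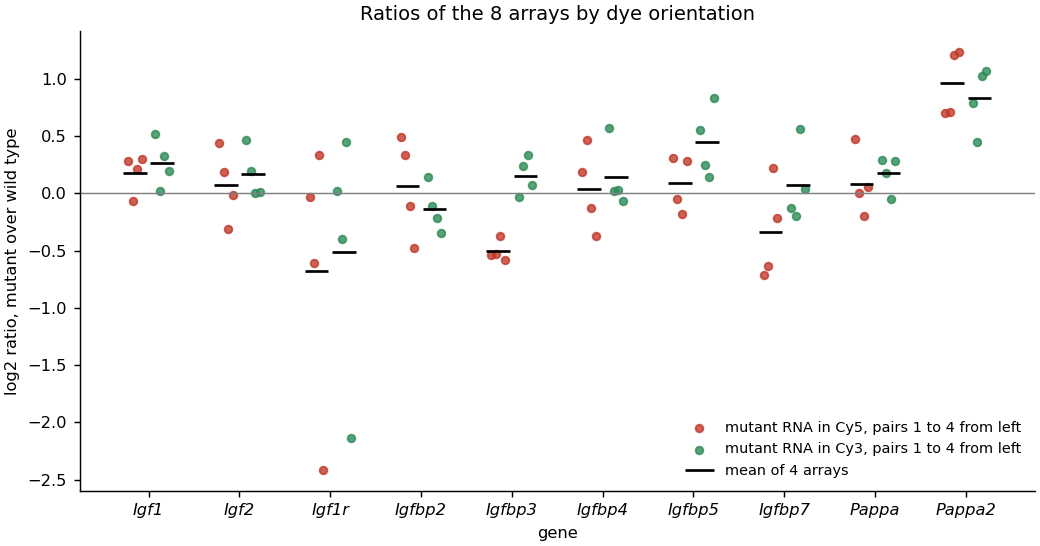
Log2 ratio of mutant over wild type (vertical axis) on each of the 8 arrays for the 10 genes, with mutant RNA in Cy5 (red) or in Cy3 (green); black bars are means of 4 arrays. Pappa2 lies above 0 in both orientations (means 0.96 and 0.83), whereas Igfbp3 has means of -0.50 and 0.16.

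Pappa2 was set beside markers of the cells that a whole kidney holds. Of the 7 genes listed for the loop of Henle and macula densa, 6 were tested, Nos1 being the other. Mean ratios were above 0 in 6 of 6, and in 8629 of the 16013 genes tested. The 6 genes together were at 0.07, -0.04, 0.56 and 0.55 in pairs 1 to 4, and their mean level ranged from 7.84 to 8.58 in wild type and from 8.39 to 8.64 in the mutant. The cotransporter Slc12a1, which defines the thick ascending limb, was at -0.14, -0.00, 0.97 and 0.80, and Umod, made by the same cells, at -0.11, -0.13, 0.36 and 0.10. Ptger3, a prostaglandin receptor, was at 0.73, 0.07, 0.23 and 0.60, and Ptgs2, the cyclooxygenase of the macula densa, was at 0.03, 0.22, 0.34 and 0.99. These genes of the list differed from each other: Ptger3 and Ptgs2 were above 0 in all 4 pairs, and Slc12a1 and Umod in pairs 3 and 4. Irx1 (-0.09, -0.38, 0.74 and 0.38) and Irx2 (-0.03, 0.00, 0.72 and 0.47), transcription factors of the developing nephron, were highest in pairs 3 and 4 as well. The levels of Slc12a1 were 8.42, 8.03, 7.03 and 7.08 in wild type, and 8.28, 8.03, 7.99 and 7.88 in the mutant. Umod, Irx1 and Irx2 likewise had lower wild-type levels in pairs 3 and 4 than in pairs 1 and 2, whereas Ptger3 did not. The wild-type levels of Ptgs2 were 6.91, 6.71, 6.59 and 6.70, so that pairs 2 and 4 were nearly level. The mean of the loop list was thus near 0 in pairs 1 and 2, where Pappa2 was at 0.75 and 0.58, and above 0 in pairs 3 and 4, where Pappa2 was at 1.12 and 1.15. Pappa2 exceeded the mean of the loop list by 0.68, 0.62, 0.56 and 0.60 in pairs 1 to 4, a comparison chosen after the values were seen. The excess was not particular to that list. It was 0.48, 0.53, 0.40 and 0.54 over the podocyte mean, and 0.74, 0.77, 0.52 and 0.61 over the proximal tubule mean. Podocyte markers were above 0 in 6 of 6 genes (0.27, 0.05, 0.72 and 0.61 in pairs 1 to 4) and proximal tubule markers in 5 of 5 (0.01, -0.19, 0.60 and 0.54), and macrophage markers in 6 of 6 (0.46, 0.04, 0.17 and 0.52). Their mean levels ranged from 8.65 to 9.70 in wild type and 9.37 to 9.97 in the mutant for podocytes, from 8.39 to 9.31 and 8.99 to 9.31 for proximal tubule, and from 9.63 to 10.13 and 10.002 to 10.59 for macrophages. The part of these lists in the ratio of Pappa2 was not tested.

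**Figure D5:**
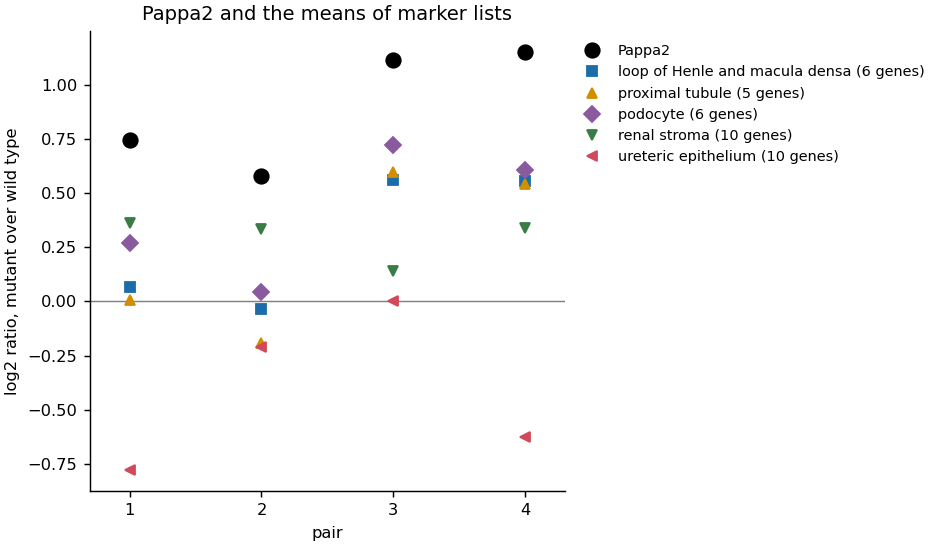
Log2 ratio of mutant over wild type (vertical axis) in pairs 1 to 4 (horizontal axis) for Pappa2 (black) and for the mean of each of 5 marker lists. The loop of Henle list is at 0.07 and -0.04 in pairs 1 and 2 and at 0.56 and 0.55 in pairs 3 and 4, below Pappa2 in every pair.

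By the root mean square difference of the ratios over the 8 arrays, the genes most like Pappa2 were Rbm45 at 0.282, Zfp365 at 0.347, Ccng1 at 0.350, Ddit4l at 0.377 and Pdyn at 0.392. Their mean ratios were 0.77 ± 0.05 for Rbm45, 0.75 ± 0.06 for Zfp365, 1.04 ± 0.11 for Ccng1, 0.58 ± 0.12 for Ddit4l and 0.61 ± 0.07 for Pdyn (SE, n = 4 pairs). All 5 had the same sign on 8 of 8 arrays, and this measure picks genes of a like ratio. Rbm45 had ratios of 0.78, 0.75, 0.75 and 0.82 in pairs 1 to 4, a narrower range than that of Pappa2.

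The rest of the IGF pathway had mean ratios on both sides of 0. Of 49 further genes listed, 44 were tested, 21 with mean ratios above 0 and 23 below, and their median was -0.01. Among them 4 were higher and 2 lower at the unadjusted level of 0.05, and 0 passed limma's adjusted test. Of 7 other ligands and receptors, 5 were tested, Gh and Ins1 being the others, and 4 were above 0. Ghr, the growth hormone receptor, was at 0.22, 0.28, 0.16 and 0.53 (mean 0.30 ± 0.08, SE, n = 4 pairs, limma adjusted p = 0.397), with the same sign on 8 of 8 arrays. Igf2r, which takes IGF2 up for degradation, was at 0.10, 0.38, -0.09 and 0.48 (mean 0.22 ± 0.10), and it was at 0.52 with mutant RNA in Cy5 and -0.09 with it in Cy3. Insr, the insulin receptor, was at 0.13, -0.21, -0.35 and -0.30 (mean -0.18 ± 0.09), and its sign also differed between the dyes, with 0.06 in Cy5 and -0.42 in Cy3.

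Of 8 genes listed as other binding proteins, carriers and relatives by name, 6 were tested, Igfals and Igfbpl1 being the others. Only Igfbp1 and Igfbp6 of these encode IGF-binding proteins: Igf2bp1, Igf2bp2 and Igf2bp3 encode proteins that bind mRNA, and H19 is a non-coding RNA beside Igf2. The mean ratios of these 4 were -0.11 for Igf2bp1, -0.10 for Igf2bp2, -0.04 for Igf2bp3 and -0.05 for H19. Igfbp6, which prefers IGF2, was at 0.02, -0.45, -0.26 and -0.49 (mean -0.30 ± 0.10, SE, n = 4 pairs, limma adjusted p = 0.425). It was lower in 3 of 4 pairs. Igfbp1, a binding protein made by liver, was at -0.28, -0.64, 0.89 and -0.09 (mean -0.03 ± 0.23), so that pair 3 opposed the others. The 3 liver markers tested of 5 listed, with Apoa1 and Ttr the others, were at -0.28, -0.79, 0.69 and 0.77 on average in pairs 1 to 4, and their mean levels ranged from 7.87 to 9.88 in wild type and from 8.56 to 9.60 in the mutant. The part of liver RNA in the spread of Igfbp1 was not tested.

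Among proteases and inhibitors of the pappalysins, 5 of 6 listed genes were tested, Klk1 being the other. Htra1, a secreted serine protease that can cut binding proteins, was at 0.46, 0.15, 0.39 and 0.43 (mean 0.36 ± 0.07, SE, n = 4 pairs, limma adjusted p = 0.304), with the same sign on 8 of 8 arrays. The stanniocalcins, which inhibit the pappalysins, were near 0: Stc1 had a mean of 0.05 ± 0.07, and Stc2 had a mean of -0.05 ± 0.09. Of the 28 signalling genes inside the cell, 14 were above 0 and 14 below. The adaptor Shc1 was at 0.18, 0.10, 0.18 and 0.42 (mean 0.22 ± 0.07) and the kinase Mtor at 0.23, 0.24, -0.01 and 0.22 (mean 0.17 ± 0.07). Irs4, an insulin receptor substrate, was at -0.31, -0.12, -0.10 and -0.47 (mean -0.25 ± 0.08). Irs4 was at -0.88 both with the scanner's background subtraction and in the deposited ratios, and at -0.09 with mutant RNA in Cy5 and -0.41 with it in Cy3. Its probe was dim (mean level 7.01) and well above background in 6 of 8 mutant channels, so that the size of its ratio depends on the background correction. Shc1, Mtor and Irs4 did not pass limma's adjusted test (adjusted p = 0.425, 0.459 and 0.425).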

How the data were processed

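RNA from 4 wild-type and 4 mutant kidney samples was measured on 8 2-colour arrays, and arrays were paired as the labels state. The scanner files hold spot and background median intensity values and flags (such as well above background), all as deposited. In the series table the authors deposited Cy5 over Cy3 as log10 ratios, which differed from those of the scanner files by at most 0.005, had a median of 0 in every column and were not turned for the dye. Feature Extraction is given as version 8.5.1.1 per the submitters' processing notes and as 10.7.3.1 per the file headers.

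Intensities were corrected with normexp (offset 50) and normalised by loess in limma 3.58.1 (R 4.3.3), without 3671 control spots and 95 to 156 outlier spots per array. Ratios were turned to mutant over wild type and the 2 arrays of a pair, which hold the same RNAs, were averaged. Probes well above background in at least 6 of 8 channels of a genotype were kept (34594 of 56605). RefSeq accessions named 32994 probes (58.3%) through the GRCm38.p6 table, with 23611 left unnamed. The array design refers to another build, so that no probe positions are printed. The brightest kept probe stood for a gene, and 5916 genes had more than 1. For 16013 genes, limma's two-sided test (lmFit, eBayes) set the pair ratios against 0, and p-values were adjusted by Benjamini-Hochberg. The steps were tested on simulated data.

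Named genes are the 10 members, the other pathway genes at an unadjusted p under 0.05, Igf2r, Insr, Igfbp1, Igfbp6, Stc1 and Stc2, and the 5 genes nearest to Pappa2. Marker genes beside a result were named for the role they mark. Members and lists were chosen with earlier results of these data known. Alternatives changed the background correction, normalisation, filter, probe rule, dye orientation, pairs, replicate block and a Y-linked covariate.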

Additional observations from a re-analysis of the deposited data

Results flagged for a closer look

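In 41 groups of 4 values (pair ratios of the named pathway genes, and the wild-type and mutant levels of the 10 members), 3 held a value that stood apart by Dixon's gap criterion at the 95% level. Chance gives about 1 such group in 20. The Igf1 mutant level of pair 1 was 12.02, above the 11.55 to 11.59 of the other mutant samples. The Igfbp2 mutant level of pair 4 was 12.98, below the other mutant samples at 13.28 to 13.32. The Mtor ratio of pair 3 was -0.012, whereas the other pairs lay between 0.22 and 0.24.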

How the results depend on the processing

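The number of genes called at an adjusted p under 0.05 was 0 as reported and 0 under 11 of the 13 alternatives. It was 42 under median centring and 39 in the paired fit of all 8 arrays with a dye coefficient and the replicate block, in which the 2 arrays of a pair correlated at 0.586. Members with the same sign in all pairs numbered 2 as reported, 5 under median centring and 4 when mutant RNA was in Cy3, and between 2 and 6 with a pair left out. This count was not made for the replicate block and the Y-linked covariate. Members at an unadjusted p under 0.05 numbered 4 as reported, 6 under median centring, 2 with the scanner's background subtraction, 2 when mutant RNA was in Cy5, 1 with the Y-linked covariate, and between 1 and 5 with a pair left out. The shares of all genes that met these 2 rules are not given for the alternatives. Changes in the counts therefore cannot be read as particular to the members. Igf1, Igf1r, Igfbp5, Pappa and Pappa2 kept their sign under every alternative run. Median centring, which put the median of all genes at 0.14, placed Igfbp2 at 0.13, Igfbp7 at 0.038 and Igfbp1 at 0.054, none of them above that median, and the deposited ratios turned Igfbp1 to 0.0091. The median over kept probes turned Igf2 to -0.056 and Igfbp4 to -0.027. Arrays with mutant RNA in Cy5 alone turned Igfbp2 to 0.062, Igfbp1 to 0.039 and Insr to 0.059. Arrays with it in Cy3 alone turned Igfbp3 to 0.16, Igfbp7 to 0.070 and Igf2r to -0.090. With a pair left out, Igfbp2 ranged from -0.15 to 0.090 (above 0 without pair 3 or 4), Igfbp4 from -0.0077 (without pair 1) to 0.19, and Igfbp1 from -0.33 to 0.18 (above 0 without pair 1 or 2). The Y-linked covariate turned Igfbp7 to 0.058, Igfbp1 to 0.29 and Stc2 to 0.074. The cause of these turns was not tested. Apart from Pappa2, the replicate block changed no call among the genes named from the pathway.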
